A study of Mus musculus with 10 samples.

Results

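The genes described here are 56 genes of the G2 phase and of mitosis, read from a table of 17053 genes. They were chosen by name from a list of cell cycle regulators, with earlier results of these data known. The cells were NIH-3T3, a permanent fibroblast line that was derived from mouse embryos. Of the 56, 55 were found by symbol and 1, Sgol1, through a RefSeq synonym, under which the table lists it as Sgo1. All 56 passed the filter on low counts that left 12218 genes for testing. The line was wild type in every group, and no group carried an engineered allele. There were 5 groups of 2 libraries. Cells received 4-thiouridine (4sU, 800 µM for 2 h), a uridine analogue that is built into new RNA, and the RNA was converted by SLAM chemistry (IAA, 20 min at 50 °C), converted by TUC chemistry (OsO4 with an ammonium salt, 1 h at 40 °C) or left unconverted. The other 2 groups received uridine at the same dose and time without conversion, or no treatment. Each group has a library lettered A and a library lettered B. The labels do not say what the letters stand for or whether the cultures were separate, so the p-values measure the spread between these libraries, which may be technical.

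Passage through G2 and mitosis is driven by cyclin-dependent kinase 1 with cyclins A and B, and by the Polo and Aurora kinases. Kinetochores, motor proteins and condensins then align and separate the chromosomes, the spindle checkpoint holds anaphase until every chromosome is attached, and the anaphase-promoting complex ends the phase by marking securin and cyclin B for destruction. Most of these genes are transcribed late in the cycle, under complexes built on MuvB that bind a promoter element called the cell cycle homology region, often beside CCAAT boxes bound by NF-Y. Dividing fibroblast cultures contain cells in all phases, so RNA of the whole culture holds the transcripts of the fraction that is in late S phase, G2 or mitosis.

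Library totals lay between 27094222 and 33785682 counts. All 14 fibroblast markers examined, collagens and Vim among them, were above 1 CPM, a count scaled to the size of its library, in every library, with a summed level of 18000 to 26400 CPM. The summed level of epithelial markers (4 of 8 found) was 0.074 to 0.332 CPM, and of endothelial markers (5 of 5) 0.589 to 1.28 CPM. That of muscle markers (2 of 4) was 1.07 to 2.47 CPM, and of macrophage markers (4 of 5) 7.62 to 15.6 CPM. These marker levels were scaled to library totals alone. The letters differed from each other in a similar way in each group, although libraries of the same letter were not always the closest. The difference of B from A correlated between every pair of groups, with r of 0.584 to 0.69 over all genes tested and 0.799 to 0.936 over the 56 genes. These correlations describe genes, which are not independent replicates. The letters are therefore treated as pairing the libraries, and each comparison is given without the letter and with the letter as a replicate block. Adjusted p-values come from the quasi-likelihood F-test of edgeR, corrected by the Benjamini-Hochberg method over all 12218 genes. The threshold is 0.05, and levels other than those of the markers are CPM scaled by the trimmed mean of M-values.

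Uridine did not move any of the 56 genes past the threshold. Their log2 fold changes in uridine-treated against untreated cells ran from -0.09 to 0.09 without the letter block, with a median of -0.001, against a median of 0.002 over all genes. Without the block edgeR called 0% of all genes, and with it 0.00818%, which is 1 gene and no member. None of the 56 reached an unadjusted p under 0.05 in edgeR, against 46 of all genes without the block and 380 with it. DESeq2 called none of the 56 either. Cdk1, the kinase that drives entry into mitosis, was at 186 and 147 CPM in the A and B libraries of uridine-treated cells, against 170 and 146 CPM in those of untreated cells.

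In 4sU-treated cells many of the genes were lower, and none was higher past the threshold. Set against untreated cells in the unconverted libraries, 3 of the 56 were lower without the block, while 0.164% of all genes were called in either direction. With the block 27 were lower and 0 higher, which is 48.2% of the 56, while 12.9% of all genes were lower and 6.97% higher. The median log2 fold change with the block was -0.18 over the 56 genes and 0.01 over all genes. As the genes were chosen with earlier results of these data known, these contrasts describe the list and are not an independent observation. Called or not, 43 of the 56 were lower in both letters, against 36.2% of all genes tested with counts in every library. Both 4sU libraries lay below both untreated ones in 26 of the 56, against 20.1% of all genes. In RNA of a whole culture, fewer cells in G2 or mitosis and less RNA per such cell cannot be told apart. The falls also moved with gene length, as given below, and their cause was not tested.

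The 3 genes called in both fits were Ttk, Aspm and Ect2. Ttk, the kinase that starts spindle checkpoint signalling at unattached kinetochores, had 11.8 and 11.4 CPM in the A and B libraries of 4sU-treated cells, against 24.2 and 20.7 CPM in untreated cells and 24.1 and 21.2 CPM in uridine-treated cells. Its 4sU libraries lay at about the same level, and well below all 4 libraries of cells without 4sU. The log2 fold change against untreated cells was -0.95 ± 0.114 (SE) without the block, with an adjusted p of 0.0256 by edgeR, and -0.95 ± 0.0806 with the block, with an adjusted p of 1.2e-06 by edgeR. Aspm, which holds the microtubule minus ends at the spindle poles together, had 26.2 and 27.9 CPM with 4sU, against 43.8 and 43.5 CPM in untreated cells. The groups did not overlap, and the log2 fold change was -0.69 in both fits, with an edgeR adjusted p of 0.0469 without the block and 4.29e-06 with it. Ect2, the exchange factor that turns on RhoA at the cell equator, had 45.6 CPM in both libraries with 4sU, against 71.8 and 70.5 CPM in untreated cells. The letters hardly differed in this gene, and its log2 fold change was -0.64, with an edgeR adjusted p of 0.0256 without the block and 1.87e-06 with it. Without the block, leaving out any 1 of the 10 libraries put the adjusted p of Ttk between 0.055 and 0.326, and between 0 and 2 of the 56 genes stayed past the threshold. With the block, 16 were lower without the A library of 4sU-treated cells, 15 without the B library, 19 without the A library of untreated cells and 24 without the B library. Ttk stayed past the threshold in each of these blocked fits. The share of all genes called in fits that leave out a library is not given here.

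The promoters of these genes are shown because 2 motifs in them were more common among the members than among all genes. RefSeq windows of 300 bases around the annotated start (GRCm38.p6), most of each before it, were found for 48 of the 56 genes. The core of the cell cycle homology region, searched as TTTGAA or as TTCGAA, stood on either strand in the window of 37 of the 48 genes (77.1%), against 21.7% of the 27025 genes with a window. CCAAT stood on either strand in 35 (72.9%), against 41.1% of all genes with a window. Both were in the same window in 32 (66.7%), against 8.61% of all. CCAAT and TTTGAA can share an end letter, and TTCGAA reads the same on both strands. Of the 24 genes with a window that were lower with 4sU with the block, 22 had a homology region match, and of the other 24 genes 15 had one. These are matches of letters in a window, given as a description. The 150 bases before the start follow for 4 genes that were lower with 4sU (Ttk, Aspm, Ect2 and Top2a) and for 3 that were not called (Cdk1, Cdc20 and Ube2c), 5′ to 3′ on the strand of the gene, with the letters of both motifs, in either orientation, in capitals.
Ttk, chr9:83834539-83834688, plus strand: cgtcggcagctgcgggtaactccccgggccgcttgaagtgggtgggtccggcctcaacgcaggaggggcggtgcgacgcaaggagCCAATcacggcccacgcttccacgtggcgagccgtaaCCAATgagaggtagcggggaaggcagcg
Aspm, chr1:139454623-139454772, plus strand: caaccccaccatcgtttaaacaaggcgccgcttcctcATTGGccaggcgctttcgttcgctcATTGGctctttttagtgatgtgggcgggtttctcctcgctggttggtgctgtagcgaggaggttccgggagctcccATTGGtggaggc
Ect2, chr3:27153879-27154028, minus strand: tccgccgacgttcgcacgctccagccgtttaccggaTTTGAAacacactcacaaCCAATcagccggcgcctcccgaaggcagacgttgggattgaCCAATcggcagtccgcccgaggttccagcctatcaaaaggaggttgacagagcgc
Top2a, chr11:99024190-99024339, minus strand: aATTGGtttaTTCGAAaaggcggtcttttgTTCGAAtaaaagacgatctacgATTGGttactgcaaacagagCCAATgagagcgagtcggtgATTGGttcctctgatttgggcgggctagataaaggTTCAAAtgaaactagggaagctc
Cdk1, chr10:69352913-69353062, minus strand: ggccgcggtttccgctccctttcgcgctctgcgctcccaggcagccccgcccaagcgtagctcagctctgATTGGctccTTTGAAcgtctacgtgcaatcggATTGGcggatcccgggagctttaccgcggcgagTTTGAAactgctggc
Cdc20, chr4:118437344-118437493, minus strand: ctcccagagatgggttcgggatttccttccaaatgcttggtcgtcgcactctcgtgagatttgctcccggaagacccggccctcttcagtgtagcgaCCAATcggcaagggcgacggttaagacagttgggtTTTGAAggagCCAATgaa
Ube2c, chr2:164769779-164769928, plus strand: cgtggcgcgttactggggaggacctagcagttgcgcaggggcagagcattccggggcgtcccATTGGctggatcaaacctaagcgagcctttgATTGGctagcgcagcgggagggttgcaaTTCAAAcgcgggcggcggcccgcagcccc
Top2a held 3 such homology region matches and 4 CCAAT matches in these 150 bases, and Cdk1 held 2 of each. Ttk and Aspm had only CCAAT matches here, 2 and 3 of them, and their 1 homology region match lay elsewhere in the 300-base window. Genes that were lower with 4sU and genes that were not both carried the 2 kinds of motif.

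By role, before any correction for length, the mitotic kinesins and the genes of chromosome structure had the largest share of members lower with 4sU. Of the 10 kinesins, 7 were lower with the block, where 12.9% of all genes were. The median log2 fold change of the group was -0.40. Kif20b, a motor of late mitosis and cytokinesis, had 33.9 and 42.0 CPM in the A and B libraries with 4sU, against 61.1 and 62.3 CPM in untreated cells, a log2 fold change of -0.71 ± 0.0941 (edgeR adjusted p 6.49e-05). Kif11, the motor that pushes the spindle poles apart, had 65.4 and 65.8 CPM with 4sU, against 93.9 and 87.7 CPM in untreated cells. Kif2c, which takes microtubules apart at centromeres, had 49.7 and 38.5 CPM with 4sU, against 68.1 and 54.7 CPM in untreated cells. The A and B libraries of Kif2c were apart by about as much in both groups, and within each letter the 4sU library was the lower one. Kif14, Kif15, Kif23 and Kif4 were also lower, by 0.44 to 0.32 on the log2 scale (Kif14 -0.44, Kif4 -0.32). An alternative chosen after seeing the data removed, from each library, a trend on gene length of level relative to the gene's mean over libraries. With this length trend removed, Kif14 was at -0.247 and was not called. Kif18a, Kif22 and Kif20a were not called, with log2 fold changes of -0.25, -0.14 and 0.05.

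**Figure D1:**
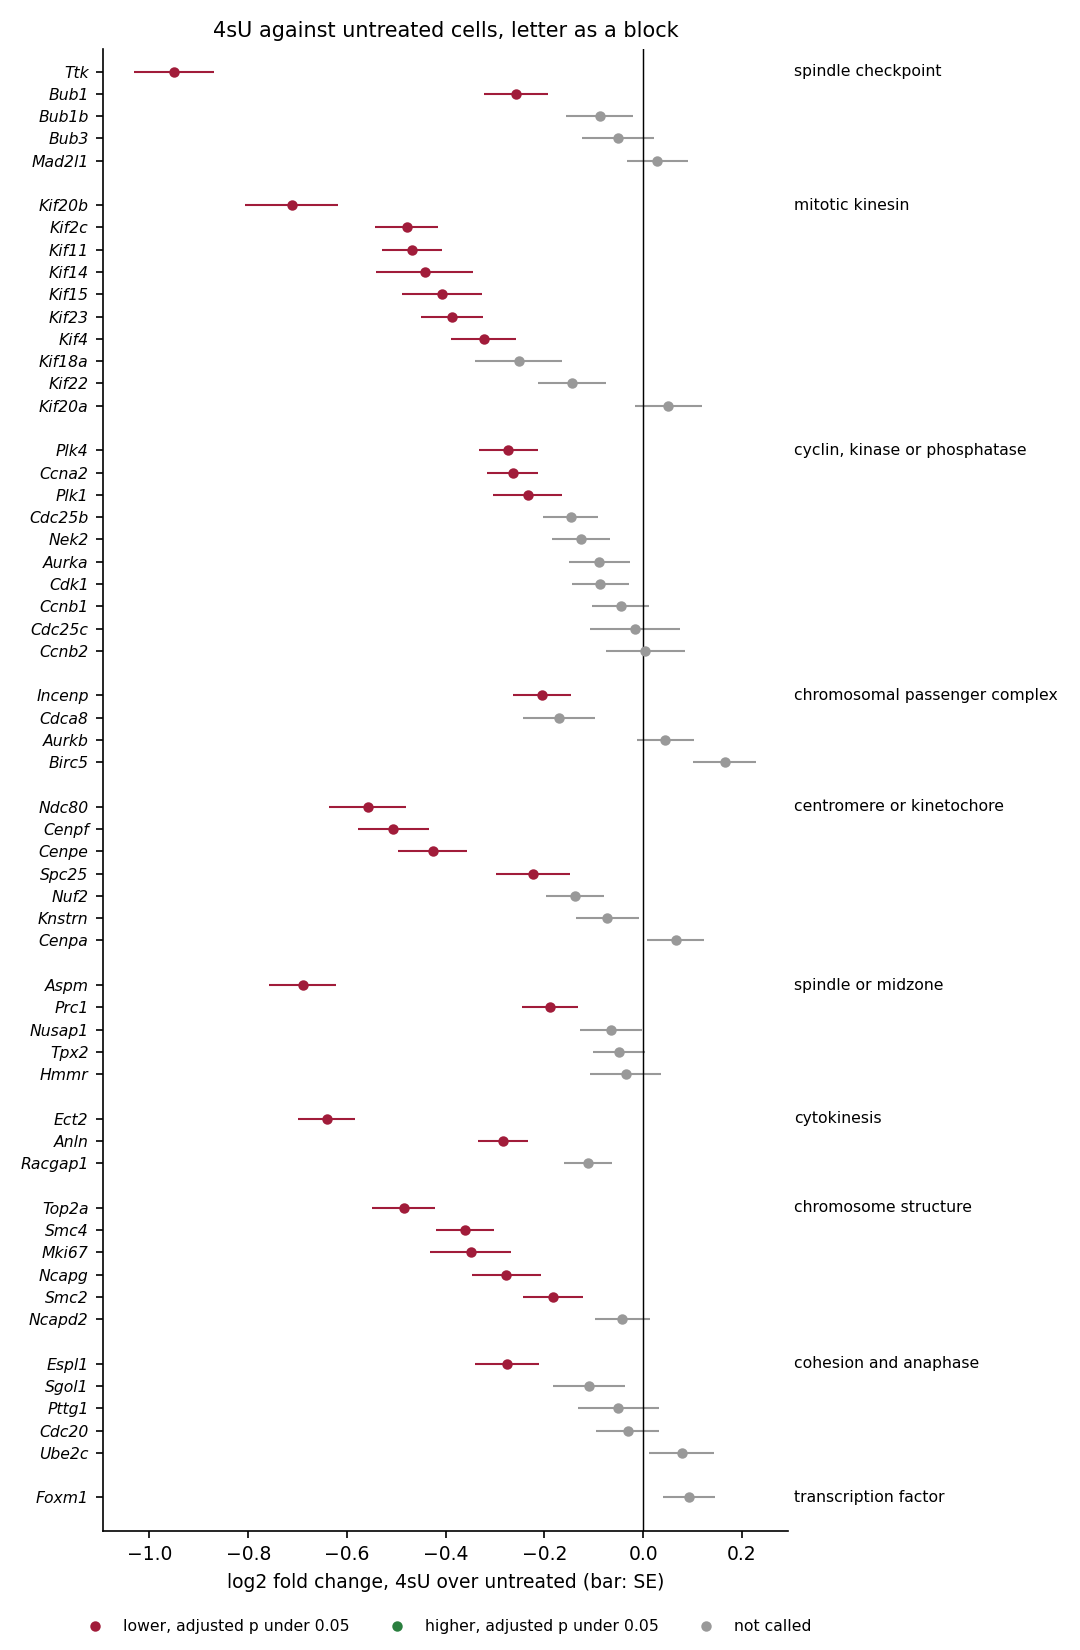
Log2 fold change in 4sU-treated against untreated cells, unconverted libraries, of each of the 56 genes by role, from the edgeR fit with the letter as a block. Points are estimates and bars their SE from that fit, which holds all 10 libraries, 2 a group. Red marks an adjusted p under 0.05 (27 genes, all below 0, Ttk at -0.95 the lowest), and grey points were not called.

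Among the 6 genes of chromosome structure, 5 were lower, where 12.9% of all genes were. Top2a, the topoisomerase that untangles sister chromatids, had the highest level per kilobase of the 56 genes, 94.8 CPM per kilobase in untreated cells. It had 374 and 334 CPM in the A and B libraries with 4sU, against 502 and 488 CPM in untreated cells. The groups did not overlap, and the log2 fold change was -0.49 ± 0.0642 (edgeR adjusted p 6.5e-05). Mki67, the Ki-67 protein that coats mitotic chromosomes and serves as the common marker of cycling cells, had 207 and 210 CPM with 4sU, against 271 and 259 CPM in untreated cells (log2 fold change -0.35, edgeR adjusted p 0.00659). With the length trend removed, Mki67 was at -0.133 and was not called. The condensin genes Smc4, Ncapg and Smc2 fell by 0.36, 0.28 and 0.18 on the log2 scale, and Smc2 was at -0.081 and not called with that trend removed. Without Mki67 and Smc2 this role was no longer among those with the largest share of lower members. Ncapd2, a condensin I subunit, was not called, at -0.04.

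Kinetochore genes were split. Ndc80, whose protein grips microtubules, had 23.0 and 15.6 CPM in the A and B libraries with 4sU, against 31.7 and 24.6 CPM in untreated cells. Both 4sU libraries lay below both untreated ones, although the letters were far apart in each group, with a log2 fold change of -0.56 ± 0.0786 (edgeR adjusted p 0.000113 with the block). Cenpf, a large protein of the outer kinetochore, had 47.3 and 50.5 CPM with 4sU, against 71.9 and 66.9 CPM in untreated cells (log2 fold change -0.51, edgeR adjusted p 0.000132). Cenpe, a kinesin at the same place, fell by 0.43 on the log2 scale, and Spc25, of the same complex as Ndc80, by 0.22. Nuf2, a further subunit of that complex, was at -0.14 and was not called against untreated cells. Knstrn, a protein of spindles and kinetochores, was at -0.07, and Cenpa, the histone H3 variant of centromeres, was at 0.07, neither called.

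The cyclins, kinases and phosphatases were split as well. Of 10 cyclins, kinases and phosphatases, 3 were lower, where 12.9% of all genes were: Plk4, the kinase that licenses centriole duplication, at -0.27, Ccna2, cyclin A2, at -0.26, and Plk1, Polo-like kinase 1, at -0.23 (edgeR adjusted p 0.00436, 0.00183 and 0.0268 with the block). Ccnb1, cyclin B1, had 113 and 89.5 CPM in the A and B libraries with 4sU, against 118 and 91.6 CPM in untreated cells. Cdk1 had 162 and 135 CPM with 4sU, against 170 and 146 CPM in untreated cells. Neither was called, with log2 fold changes of -0.05 ± 0.057 and -0.09 ± 0.0575 and edgeR adjusted p of 0.618 and 0.312. Plk1 had 47.7 and 34.6 CPM with 4sU, against 55.2 and 41.3 CPM in untreated cells, so its letters lay further apart than its treatments. Aurka, Nek2, Cdc25b, Cdc25c and Ccnb2 were between -0.15 and 0.00 and were not called.

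In the spindle checkpoint Bub1 was lower beside Ttk, at -0.26, whereas Bub1b, Bub3 and Mad2l1 lay between -0.09 and 0.03 and were not called. In the chromosomal passenger complex, which senses tension at kinetochores, the scaffold Incenp was lower, at -0.20. Its partners Cdca8, Aurkb and Birc5 were at -0.17, 0.04 and 0.165 and were not called, and the value of Birc5, survivin, was the highest of the 56. Among genes of the spindle and its midzone, Prc1, the bundler of antiparallel microtubules, fell by 0.19 on the log2 scale beside Aspm, and Nusap1, Tpx2 and Hmmr lay between -0.07 and -0.04. Of the 3 cytokinesis genes, Anln, anillin, fell by 0.28 beside Ect2, and Racgap1 was at -0.11 and was not called. Of the 5 genes of cohesion and anaphase, only Espl1, separase, was called, at -0.28, and with the length trend removed it was at -0.135 and not called. Cdc20, Pttg1 (securin), Sgol1 (shugoshin) and Ube2c lay between -0.11 and 0.08. Foxm1, the transcription factor that activates many of these genes, had 130 and 131 CPM in the A and B libraries with 4sU, against 122 and 123 CPM in untreated cells, a log2 fold change of 0.09 that was not called.

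**Figure D2:**
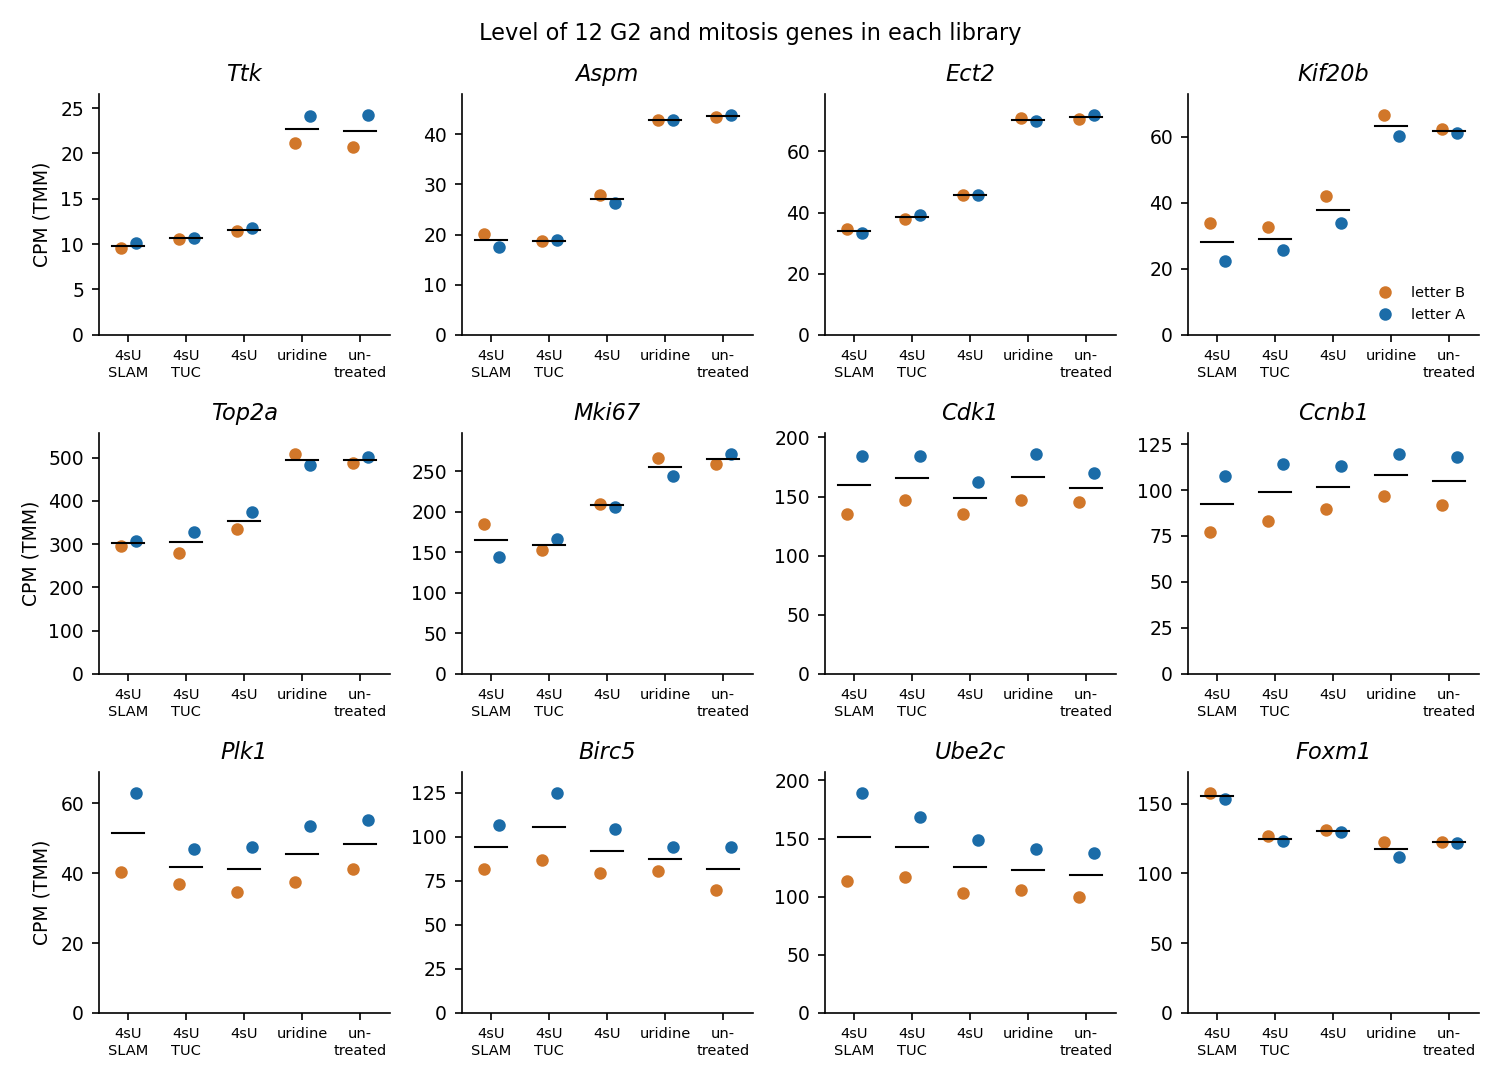
Level (CPM, scaled by the trimmed mean of M-values, linear axes from 0) of 12 of the genes in all 10 libraries, with letters B and A as separate points and a line at the mean of the 2. Ttk, Aspm, Ect2, Kif20b, Top2a and Mki67 are lower in all 3 groups with 4sU than in the uridine and untreated groups, and Cdk1, Ccnb1, Plk1, Birc5 and Ube2c are higher in every A library than in the B library of the same group.

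Uridine-treated cells as the baseline gave nearly the same list. Both comparisons use the same 4sU libraries and are not independent. Against uridine, edgeR called Ttk, Ect2 and Aspm lower without the block (0.254% of all genes were called), at -0.97, -0.63 and -0.66. With the block 25 of the 56 were lower and 0 higher, against 13.3% and 6.48% of all genes. The 2 lists shared 24 genes, which is 24 of the 27 and 24 of the 25. Plk1, Prc1 and Espl1 were called against untreated cells and not against uridine, and Nuf2, at -0.19, was called against uridine and not against untreated cells. The count of 25 was 14 without the B library of uridine-treated cells and 15 without the B library of 4sU-treated cells.

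Other genes of mitosis, of the anaphase-promoting complex and of the MuvB complexes were counted as lists drawn up by function, with earlier results of these data known. With the block, 21 of 62 other mitosis genes were lower in 4sU-treated than in untreated cells and 2 were higher, with a median of -0.11. Knl1, the kinetochore scaffold of the Ndc80 network, and Cenpi, of the inner kinetochore, were at -0.69 and -0.65 with edgeR adjusted p of 7.8e-05 and 1.19e-05. The condensin II genes Ncapg2 and Ncapd3 were at -0.56 and -0.39, and Ncaph2, of the same complex, was higher, at 0.19. Of 16 genes of the anaphase-promoting complex, 5 were lower, among them Cdc27 at -0.61 and Anapc4 at -0.41, and 3 were higher, with a median of 0.01. Of 12 genes of the DREAM and MuvB-MYBL2 complexes, 3 were lower (Lin54 -0.42, Rbl1 -0.31, Tfdp1 -0.18) and 0 higher. The 12.9% of all genes that were lower and the 6.97% that were higher are the shares to read these counts against. Cdkn1a, the p21 inhibitor of cyclin-dependent kinases, rose by 1.48 on the log2 scale in the same comparison (edgeR adjusted p 0.000797 without the block).

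Length and turnover moved with these falls. In the table the median length of the 56 genes was 3737 bases, against 3307 over all genes tested. With all genes cut by length into 5 bins, 30.6% of the longest 2443 genes, of 5179 bases or more, were lower with 4sU with the block, and 9 of the 11 members among them. Of the shortest 2446 genes, 1.68% were lower, and 1 of 4 members. The 27 lower members had a median length of 4316 bases, against 3586 in the other 29. Across the 56 genes the rank correlation of log2 fold change with length was -0.37, against -0.41 over all 12218 genes. With the length trend removed, 24 of the 56 were lower (10.9% of all genes) and 3 higher (9.87% of all genes). Of the 27, 23 stayed lower, Ttk at -0.96 among them. The 4 that did not were Kif14, Mki67, Espl1 and Smc2. The 3 higher ones were Mad2l1, Birc5 and Foxm1, at 0.20, 0.18 and 0.16. The 27 had a median new-to-total RNA ratio of 0.722 in the SLAM libraries, against 0.457 in the other 29. Where uridine-treated cells were the baseline, the gap was smaller, with 0.713 in the 25 lower members and 0.611 in the other 31. The rank correlation of log2 fold change against untreated cells with the ratio was -0.46 over the members and -0.28 over all genes. Whether turnover has a part in the falls was not tested.

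After conversion members differed in both directions from unconverted 4sU libraries. The SLAM libraries set against unconverted 4sU libraries gave 0 called members without the block, where edgeR called 0.344% of all genes. At an unadjusted p under 0.05 in edgeR there were 2284 of 12218 genes and 9 members. DESeq2 called 4 members. With the block 14 were lower and 8 higher, against 21.6% and 20% of all genes, so the members' shares were near those of all genes. Aspm had 17.5 and 20.2 CPM in the A and B SLAM libraries, against 26.2 and 27.9 CPM in the unconverted ones, a log2 fold change of -0.52 ± 0.074 (edgeR adjusted p 5.97e-05). With the length trend removed it was at -0.152 and was not called. Smc2, the shared motor subunit of both condensins, had 70.2 and 84.3 CPM, against 99.9 and 112 CPM (log2 fold change -0.45). Called or not, both SLAM libraries lay below both unconverted ones in 17 of the 56 members, against 22.6% of all genes. The groups just overlapped in Kif20b, with 22.5 and 33.9 CPM against 33.9 and 42.0 CPM (-0.43). Ect2 had 33.2 and 34.5 CPM, against 45.6 CPM in both unconverted libraries (-0.43). Espl1 had 34.8 and 42.2 CPM, against 49.4 and 51.2 CPM (-0.39), and Kif14 had 8.68 and 8.52 CPM, against 11.9 and 10.6 CPM (-0.38).

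The 8 members that were higher with SLAM were Plk1, Ccnb2, Cdc20, Foxm1, Ube2c, Aurkb, Kif20a and Racgap1. Plk1 had 62.9 and 40.5 CPM in the A and B SLAM libraries, against 47.7 and 34.6 CPM in the unconverted ones (log2 fold change 0.32, edgeR adjusted p 0.00183). Ccnb2, cyclin B2, had 25.7 and 17.6 CPM, against 21.0 and 14.3 CPM (0.30). Cdc20, the activator of the anaphase-promoting complex, had 178 and 112 CPM, against 139 and 97.0 CPM (0.29). In these genes the SLAM library was higher within each letter, while the groups overlapped across letters. Foxm1 had 153 and 157 CPM, against 130 and 131 CPM (0.25), with no overlap. Ube2c, the ubiquitin-conjugating enzyme of that complex, had 189 and 114 CPM, against 149 and 103 CPM (0.25), and Aurkb, the kinase of the passenger complex, had 80.6 and 62.8 CPM, against 70.7 and 54.1 CPM (0.20). Without the A or the B library of unconverted 4sU, 13 and 12 members were called in place of 22.

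TUC libraries had fewer called members, nearly all of them lower. Without the block edgeR called 0% of all genes and no member in TUC against unconverted 4sU libraries, and DESeq2 called 1 member. At an unadjusted p under 0.05 in edgeR there were 846 of 12218 genes and 7 members. With the block 11 were lower and 1, Birc5, was higher, against 14.2% and 11.6% of all genes. Birc5 had 125 and 86.9 CPM in the A and B TUC libraries, against 104 and 79.2 CPM in the unconverted ones (log2 fold change 0.20, edgeR adjusted p 0.0339). The 11 lower members were Anln, Aspm, Cenpe, Cenpf, Ect2, Espl1, Kif14, Kif20b, Mki67, Smc2 and Top2a. The SLAM and TUC comparisons share their unconverted libraries and are not independent. Aspm had 18.8 and 18.7 CPM with TUC (-0.53), Kif14, a motor of cytokinesis, had 9.93 and 7.01 CPM, against 11.9 and 10.6 CPM (-0.42), and Espl1 had 35.1 and 40.5 CPM, against 49.4 and 51.2 CPM (-0.41). Mki67 had 166 and 153 CPM, against 207 and 210 CPM (-0.38), Kif20b had 25.6 and 32.6 CPM (-0.38), and Cenpe, a kinesin at the kinetochore, had 44.6 and 40.3 CPM, against 52.7 and 55.9 CPM (-0.36). Called or not, both TUC libraries lay below both unconverted ones in 18 of the 56 members, against 18.9% of all genes. The count of 12 was 3 without the A and 4 without the B library of unconverted 4sU, and 2 without the B library of TUC.

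These conversion differences followed length. Of the 11 members of 5179 bases or more, 9 were lower with SLAM and 9 with TUC, while 55.5% and 50.9% of all genes of that length were. The 14 members lower with SLAM had a median length of 5484 bases and the 8 higher ones 2195 bases, and the 11 lower with TUC had 6630 bases. Rank correlations with length were -0.60 for SLAM and -0.67 for TUC over the 56 genes, against -0.51 and -0.63 over all genes. With the length trend removed, 8 members were lower (17.1% of all genes) and 8 higher (18.5%) with SLAM, and 2 lower (3.37%) and 3 higher (4.76%) with TUC. Ect2 and Espl1 stayed lower with both chemistries, and Ttk, Nek2, Plk4, Smc2 and Kif20b with SLAM. Cenpf and Mki67 changed sign: Cenpf was at -0.25 with SLAM and at 0.159, called higher, with the trend removed, and Mki67 was at -0.34 and at 0.036. With TUC, Aspm was at -0.53 and at -0.183, not called, with the trend removed. Kif14 and Cenpe, at -0.38 and -0.33 with SLAM, were at -0.042 and -0.035, and Ccnb2, Cdc20, Ube2c and Aurkb were no longer called higher. Foxm1, Plk1, Kif20a and Racgap1 stayed higher with SLAM, and Birc5 with TUC.

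**Figure D3:**
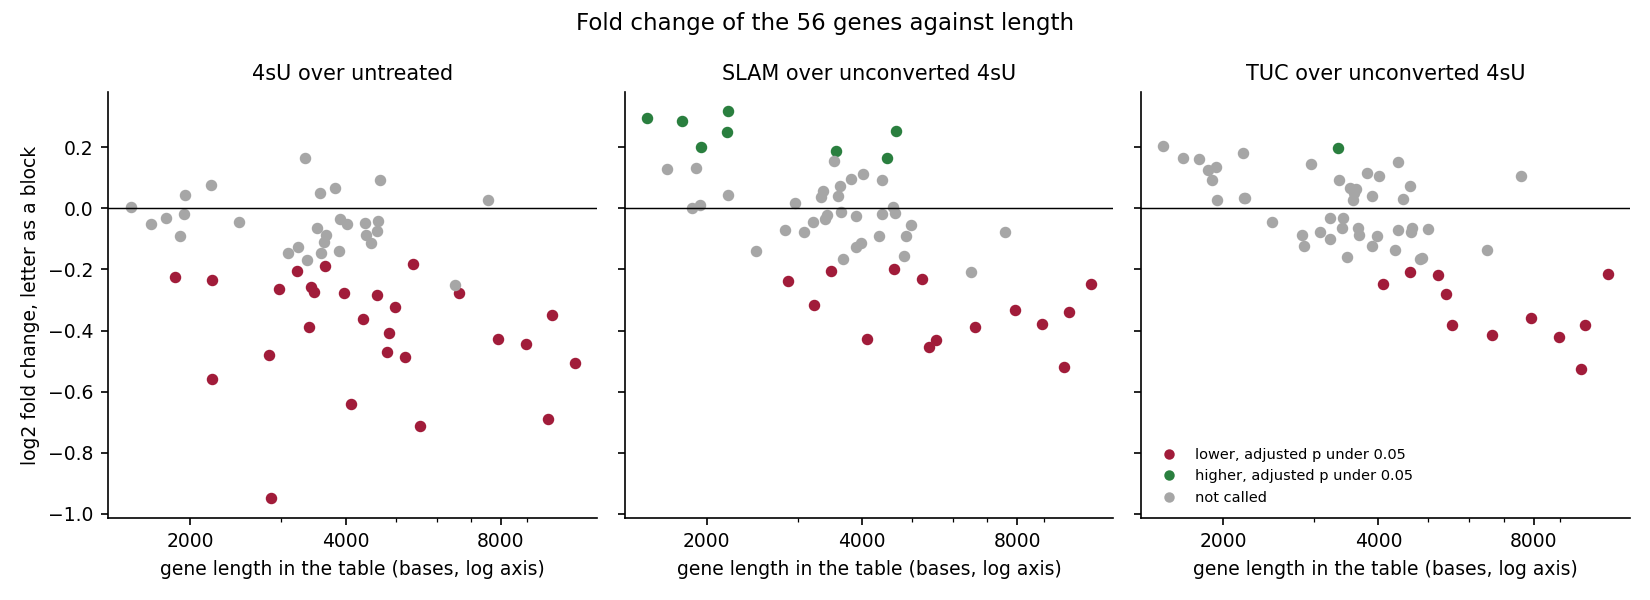
Log2 fold change of the 56 genes against gene length in the table (bases, log axis) in 3 comparisons, unconverted 4sU over untreated, SLAM over unconverted 4sU and TUC over unconverted 4sU, from edgeR fits with the letter as a block. Red points were lower and green ones higher at an adjusted p under 0.05. The 9 members lower with SLAM and the 9 lower with TUC among the 11 of 5179 bases or more stand at the right, and Ttk, at 2871 bases and -0.95, stands apart at the left of the first panel.

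With the block, the chemistries differed from each other in 6 members, a smaller share than that of all genes. Without the block none of the 56 and 0% of all genes were called in TUC against SLAM libraries, and DESeq2 called 1 member. At an unadjusted p under 0.05 in edgeR there were 1205 of 12218 genes and 2 members. With the block 3 were higher and 3 lower, 5.36% in each direction, against 10% and 10.1% of all genes. Foxm1 had 123 and 127 CPM in the A and B TUC libraries, against 153 and 157 CPM in the SLAM libraries, with no overlap (log2 fold change -0.31 ± 0.0525, edgeR adjusted p 0.000676). Plk1 had 46.9 and 36.9 CPM, against 62.9 and 40.5 CPM (-0.28), and Aurkb 69.5 and 57.2 CPM, against 80.6 and 62.8 CPM (-0.17). Nek2, a kinase of centrosome separation, had 50.8 and 42.2 CPM, against 40.7 and 35.4 CPM (0.29, edgeR adjusted p 0.00353). Ect2 had 39.1 and 37.8 CPM, against 33.2 and 34.5 CPM (0.18), and Mad2l1, the checkpoint protein that holds Cdc20, had 127 and 96.5 CPM, against 113 and 84.3 CPM (0.18). The adjusted p of Ect2 and of Mad2l1 were 0.0499 and 0.0479, close to the threshold. The count of 6 was 10 without the B library of SLAM, 1 without the A library of TUC and 3 without the B library of TUC.

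More of these genes were called between the letters than in any comparison of treatments, with 5 libraries of each letter. In a fit of group and letter over all 10 libraries, 37 of the 56 genes were lower in B than in A and 3 were higher, against 29.3% and 31% of all genes, with a median log2 difference of -0.24 over the 56 and 0.01 over all. Nusap1, a microtubule-binding protein of the spindle, had 32.2 CPM in the B and 47.0 CPM in the A library of untreated cells, and the B library was lower in every group, with 33.4 against 51.1 CPM after SLAM, 31.0 against 48.7 CPM after TUC, 30.5 against 45.3 CPM in unconverted 4sU and 32.0 against 46.1 CPM with uridine. Its log2 difference of B from A was -0.58 ± 0.0397 (edgeR adjusted p 1.08e-08). Knstrn, Ube2c, Aurka, Bub1b and Kif20a followed at -0.56, -0.53, -0.52, -0.51 and -0.50. In untreated cells Ube2c had 99.9 CPM in B and 137 CPM in A, Aurka, the kinase of spindle poles, had 44.4 and 66.9 CPM, and Bub1b, the checkpoint protein BubR1, had 62.8 and 83.8 CPM. Knstrn had 68.5 CPM in B and 90.8 CPM in A, and Kif20a, a midzone motor, 77.3 and 110 CPM. In each of these genes the B library was the lower one of its group in all 5 groups. They were picked for the size of this difference over the same libraries, so that pattern adds nothing to it.

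Cdk1 and Ccnb1, not called with 4sU, were at -0.32 and -0.39 between letters, and Plk1 was at -0.48. Ttk, the gene with the largest fall with 4sU, was at -0.13 between letters (edgeR adjusted p 0.0476), and Aspm and Ect2 were at 0.05 and 0.00 and were not called. The members higher in B were Kif20b (0.26), Espl1 (0.15) and Smc2 (0.13), with 33.9 against 22.5 CPM, 42.2 against 34.8 CPM and 84.3 against 70.2 CPM in the SLAM libraries. Foxm1 was at 0.05 and was not called. All 5 checkpoint genes were lower in B, as were 8 of the 10 cyclins, kinases and phosphatases, 3 of the 4 passenger genes and 5 of the 7 kinetochore genes, while 2 of the 6 genes of chromosome structure were. Over the 56 genes the rank correlation of the B to A difference with length was 0.67, against 0.46 over all genes. The 11 members of 5179 bases or more had a median difference of 0.05, with 3 called higher and 1 lower, while 66.5% of all genes of that length were higher in B. With the length trend removed 45 members were lower in B (27.9% of all genes) and 0 higher, 36 of the 37 among them, and Espl1 and Smc2 were at -0.052 and -0.016. The count of 40 was 24 in a fit with no group term.

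**Figure D4:**
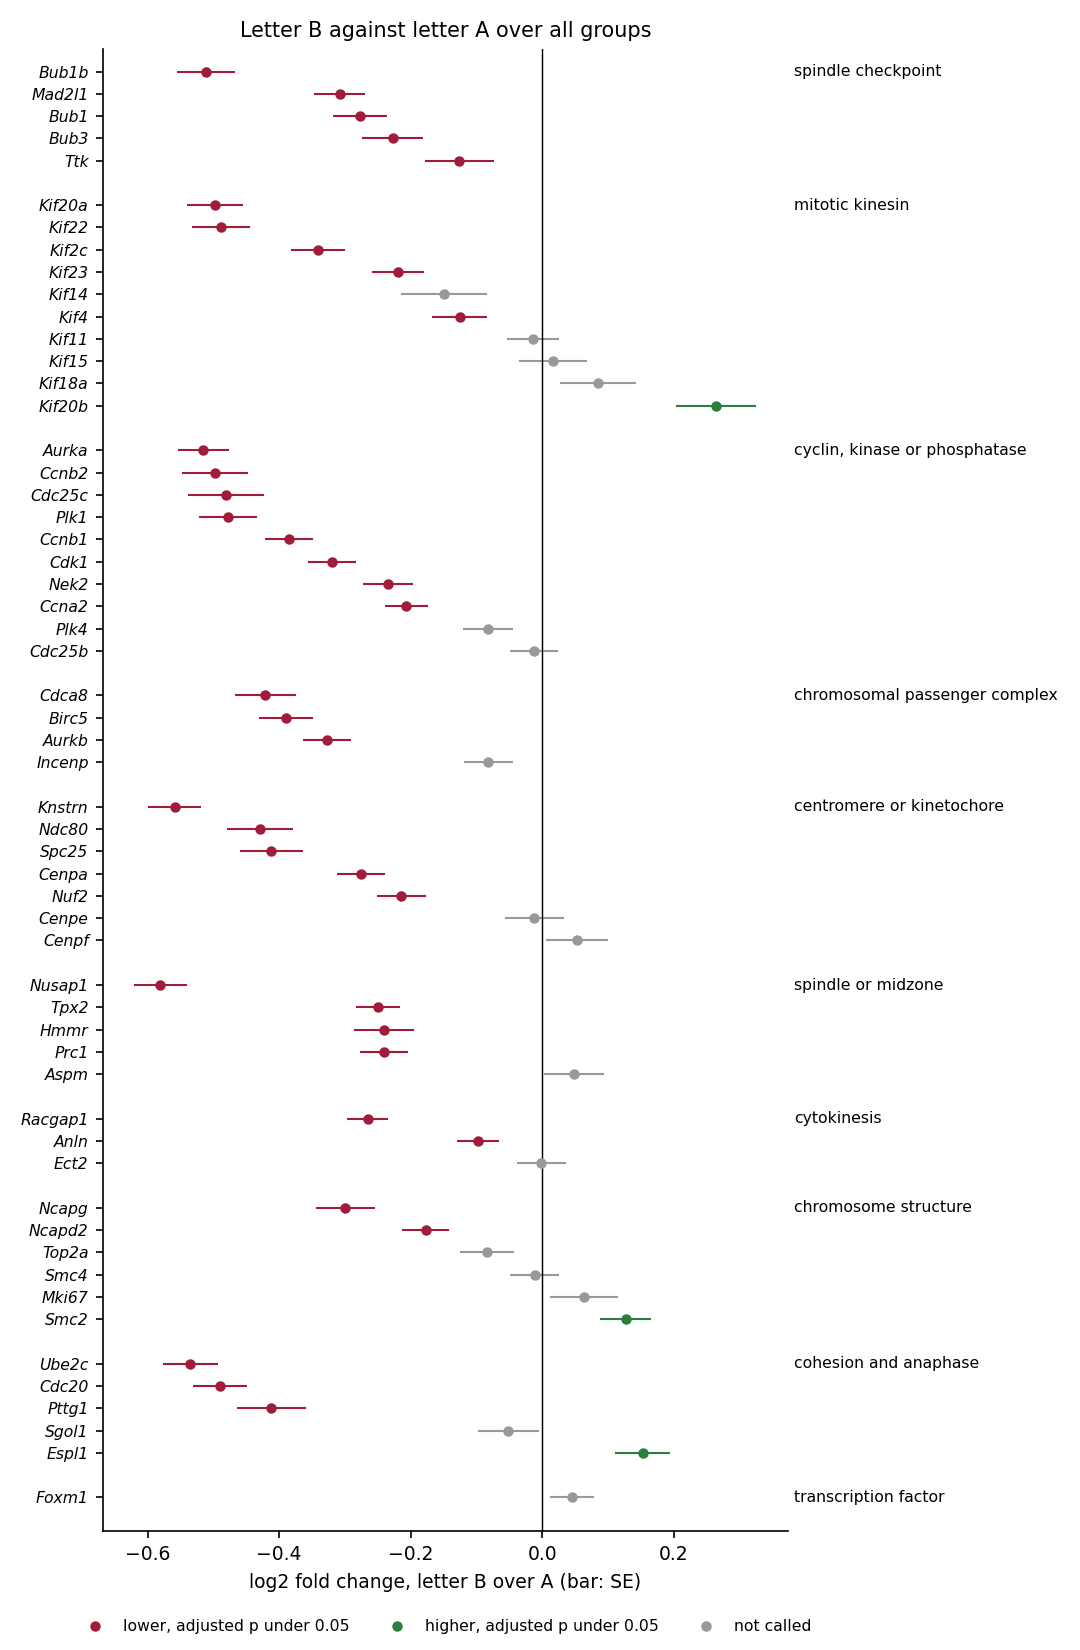
Log2 difference of letter B from letter A for each of the 56 genes by role, from the edgeR fit of group and letter over all 10 libraries. Points are estimates and bars their SE, red marks lower (37 genes) and green higher (3 genes) at an adjusted p under 0.05, and grey points were not called.

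The new-to-total RNA ratio estimates, from conversions in the reads, how much of the RNA of a gene dates from the 2 h of labelling. The file does not spell out the name, and the ratio is read here in that sense. With SLAM the median over the members was 0.548 in the A and 0.687 in the B library, and with TUC it was 0.571 and 0.672. Without conversion it was 0.0166 and 0.0154 in the A and B libraries with 4sU and 0.0118 and 0.00745 in those with uridine. Over the 10202 genes that averaged at least 100 reads, the medians were 0.523 and 0.611 with SLAM and 0.544 and 0.63 with TUC. The median percentile of the members among all genes was 55 in the SLAM libraries, 5 were above the upper quartile and 7 below the lower one.

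The members with the least new RNA were Pttg1, Ccnb2, Bub1, Ncapd2, Knstrn and Nusap1. Pttg1, the securin that blocks separase, had ratios of 0.123 and 0.189 in the A and B SLAM libraries and 0.134 and 0.207 in the TUC libraries. The deposited quantiles around its SLAM values were 0.167 and 0.214 for the B library and 0.106 and 0.142 for the A library, and these ranges did not overlap. Ccnb2 had 0.153 and 0.188 with SLAM and 0.151 and 0.192 with TUC. Cyclin B1, its close relative, stood far higher, with 0.725 and 0.81 with SLAM. Bub1 had 0.17 and 0.242 with SLAM, Ncapd2 0.2 and 0.276, Knstrn 0.224 and 0.284, and Nusap1 0.223 and 0.291. In all 6 genes the lower value was that of letter A.

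The members with the most new RNA were Sgol1, Kif20b, Kif18a, Incenp, Aurka and Kif14. Sgol1, the protector of centromeric cohesion, had 0.966 and 0.998 in the A and B SLAM libraries and 0.981 and 0.98 in the TUC libraries. Kif20b had 0.959 and 0.973 with SLAM, Kif18a, a motor that dampens chromosome movement, 0.964 and 0.958, and Incenp 0.91 and 0.962. Aurka had 0.867 and 0.928 and Kif14 0.786 and 0.907. Widely used markers of this phase lay between these extremes, with 0.694 and 0.771 for Cdk1, 0.691 and 0.78 for Plk1, 0.672 and 0.79 for Mki67 and 0.55 and 0.672 for Foxm1 in the SLAM libraries. By role the median of the mean SLAM ratio ran from 0.428 for the 3 cytokinesis genes and 0.444 for the 5 checkpoint genes to 0.73 for the 10 kinesins and 0.746 for the 10 cyclins, kinases and phosphatases.

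**Figure D5:**
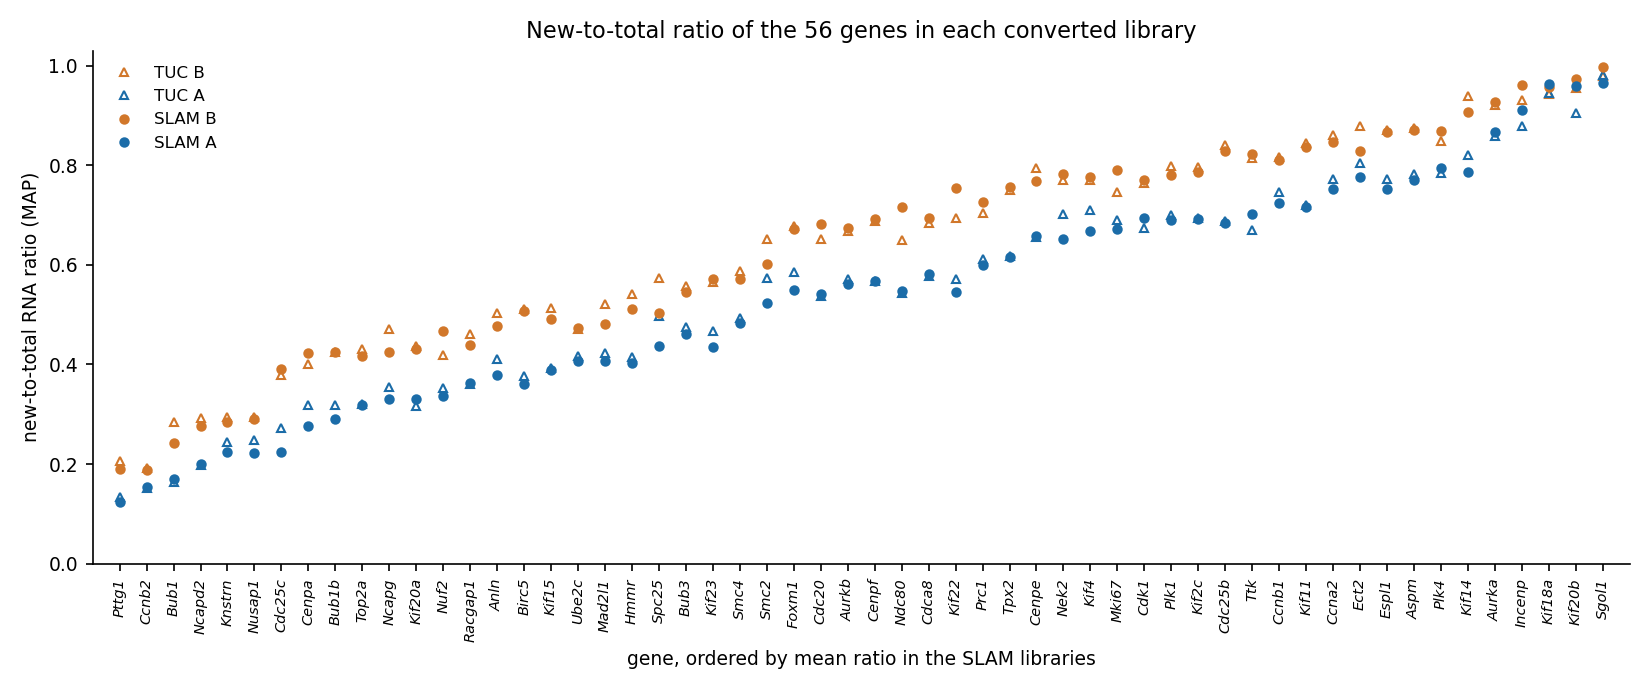
New-to-total RNA ratio (deposited posterior mode, axis from 0) of the 56 genes in each of the 4 converted libraries, TUC as open triangles and SLAM as filled circles, letter B in orange and A in blue, ordered by the mean SLAM ratio. Values run from 0.123 for Pttg1 in SLAM A to 0.998 for Sgol1 in SLAM B, and the B points lie above the A points in 55 of the 56 genes with SLAM and 54 with TUC.

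SLAM and TUC gave no member a different ratio past the threshold. With limma on the logit of the ratio, 0 of the 56 members and 0% of the 10202 genes were called in either direction, without the block and with it. At an unadjusted p under 0.05 there were 239 genes and 0 members without the block, and 889 genes and 4 members with it. The median logit difference of TUC from SLAM was 0.05 over the members and 0.062 over all genes, and 38 of the 56 members were higher with TUC, against 69.3% of all genes. A missed threshold with 2 libraries a group does not show that the chemistries gave equal ratios.

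Between letters the ratios of the members moved more than those of all genes, as raw differences and not on the logit scale. The ratio was higher in B than in A in 55 of the 56 members with SLAM and in 54 with TUC, against 84.8% and 85.1% of all genes. The median difference was 0.099 and 0.0934 over the members, against 0.0493 and 0.0474 over all genes. The RNA older than the labelling, taken as CPM times the share that was not new, was 26.6% of the untreated level for the median member in SLAM B and 38.2% in SLAM A, against 35.3% and 42.9% for the median of all genes. With TUC it was 28.6% in B and 37.8% in A, against 33.1% and 41.5% over all genes. These percentages are ratios of relative levels, and the highest of them, 109% in SLAM A, is above the untreated level.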

How the data were processed

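Total RNA of NIH-3T3 cells was sequenced in 10 libraries, 5 groups of 2. Reads were handled with cutadapt, Bowtie2 2.3.0 and STAR 2.7.10b, per the submitters' processing notes. The genome build is not given in the sources used here. The authors deposited estimated counts per gene that need not be whole, as the file shows (24.8 to 30.3% of values per library were not whole), and they were rounded. The authors also deposited, for 8 libraries, the mode and quantiles of a fraction called NTR. A further 24 columns of values per library were not used.

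Counts were fitted with edgeR 4.0.16 (R 4.3.3) over all 10 libraries, with its filter on low counts and trimmed mean of M-values scaling, as group alone and as group with the letter. DESeq2 1.42.0, library totals, other filters and left-out libraries were alternatives. Letters were treated as pairing the libraries because B minus A differences correlated between all 10 pairs of groups (r 0.584 to 0.69), and the common dispersion was 0.00195 with the replicate block, under which 27 members were called with 4sU, and 0.0187 without it. The ratio was tested with limma 3.58.1 on the logit scale (values limited to 0.005 from either end) in genes averaging 100 reads or more. The added alternative fits, in each library, a lowess trend (span 0.3) on log length of log2 CPM minus the gene's mean over libraries. That trend enters the edgeR fit as an offset. Per-library values are given for members called without the block, up to 6 per direction called with it, the 6 highest and 6 lowest in NTR, and Cdk1, Ccnb1, Plk1, Mki67 and Foxm1. The members and lists were chosen with earlier results of these data known.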

Additional observations from a re-analysis of the deposited data

Results flagged for a closer look

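Of the 56 genes, 6 differed between the TUC and the SLAM libraries in the test of the difference itself with the letter as a block. There were 3 in each direction (5.36%), below the shares of all genes, of which 10% were higher and 10.1% lower. Nek2 was higher with TUC by 0.29 on the log2 scale, Mad2l1 by 0.18 and Ect2 by 0.18. Foxm1 was lower with TUC, at -0.31, as were Plk1, at -0.28, and Aurkb, at -0.17. None of the 6 was called by edgeR without the block, where 2 members and 1205 of 12218 genes reached an unadjusted p under 0.05. With the length trend removed, Nek2 and Ect2 stayed higher and Foxm1, Plk1 and Aurkb stayed lower, while Mad2l1 was at 0.148 and was not called.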

How the results depend on the processing

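Uridine against untreated cells and the new-to-total ratio of TUC against SLAM libraries gave 0 called members under every alternative run. For unconverted 4sU against untreated cells the 3 members called without the letter became 27 with the replicate block and 26 with the block and library totals. They became 27 with the block and the length trend removed, of which 24 were lower and 3 higher, and 8 with DESeq2. Leaving out 1 library gave 0 to 2 without the block and 15 to 24 with it. Against uridine the 3 became 25, 26, 26 and 8, and 0 to 3 without the block or 14 to 19 with it when a library was left out. For SLAM against unconverted 4sU the 0 called became 22, 25, 16 and 4, with 12 to 29 in the blocked fits that leave out a library. For TUC against unconverted 4sU the 0 became 12, 10, 5 and 1, with 2 to 10. For TUC against SLAM the 0 became 6, 6, 10 and 1, with 1 to 10. The 40 members called between letters became 24 with no group term, and 37 to 44 when a library was left out. With the length trend removed 5 values changed sign: Cenpf to 0.159 and Mki67 to 0.036 for SLAM against unconverted 4sU, Cenpf to 0.172 for TUC against unconverted 4sU, and Smc2 to -0.016 and Espl1 to -0.052 for letter B against A. Their cause was not tested beyond that. Over 6 values of single members called without the block and 132 called with it, 1294 alternatives were run, of which 1032 kept direction and side of the threshold, 257 kept the direction and lost the threshold, and 5 changed sign. For DESeq2, library totals, the fit with no group term and left-out libraries, the share of all genes called is not given here. Those counts describe the members alone. Fits that leave out a library hold fewer samples, and a lone library is then assumed to vary like the other groups. With 2 libraries a group, a member that was not called may still differ.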
